A study of Mus musculus with 1699 samples.

Results

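Th, Ddc, Slc18a2 and Slc6a3 are the 4 genes that make and handle dopamine, and their joint expression was followed cell by cell. They were named by their role, with earlier results of these data known, and are 4 of 39468 gene entries measured. A member counted as on in a cell when its RPKM (reads divided by the length of the gene model and by the mapped reads of the cell) was over 10, and a cell was used when more than 100000 reads fell on genes, which held for 1674 of 1699 cells. All 16 combinations of members on or off were seen.

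The cells came from the ventral midbrain of mice with eGFP knocked in at the Pitx3 locus, and single GFP-positive cells were sorted and sequenced with Smart-seq2, which reads full-length transcripts. Pitx3eGFP/wt animals, with 1 reporter allele and 1 intact allele, were sampled at 3 embryonic stages (E13.5, E15.5 and E18.5) and 3 postnatal ages (P1, P7 and P90). Pitx3eGFP/eGFP animals, in which both Pitx3 alleles carry eGFP, were sampled at E13.5 and P1. Every group held at least 140 cells, and the number in each is given with the processing. Every sorted cell therefore carries at least 1 eGFP allele, and the sort selects GFP, not dopamine neurons as such. The paper used fewer cells, after its own quality control. It also left out embryonic and perinatal cells that clustered with cells lacking eGFP and high in Olig1, an oligodendrocyte gene. Such cells were not left out here, so the groups differ from those of the paper. Cells of a group were pooled from several animals that the labels do not name, so each group is 1 sample and no test between groups was possible. The intervals given are 95% intervals (exact Clopper-Pearson for a share, Newcombe for a difference between shares) and cover counting error only.

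Dopamine is made from tyrosine. Tyrosine hydroxylase (Th) carries out the rate-limiting step to L-DOPA, and aromatic L-amino acid decarboxylase (Ddc) turns L-DOPA into dopamine. The vesicular monoamine transporter VMAT2 (Slc18a2) loads dopamine into synaptic vesicles, and the dopamine transporter DAT (Slc6a3) takes released dopamine back up. Ddc and Slc18a2 also serve other monoamine neurons, while Slc6a3 is the member most particular to dopamine neurons.

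In GRCm38 with GENCODE vM21, Th (ENSMUSG00000000214) lies on chromosome 7 at 142892752 to 142931128 and Ddc (ENSMUSG00000020182) on chromosome 11 at 11814101 to 11898144, both on the minus strand. Slc18a2 (ENSMUSG00000025094) lies on chromosome 19 at 59260896 to 59296012 and Slc6a3 (ENSMUSG00000021609) on chromosome 13 at 73536747 to 73578672, both on the plus strand. An antisense gene is annotated over Ddc (1700042O10Rik) and another over Slc18a2 (Gm29261), and Smart-seq2 does not mark strand, so reads of each pair cannot be told apart where they overlap. 1700042O10Rik was over RPKM 10 in 3.64% of cells and never above 61.9.

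Promoter windows of the members are shown because the genes were on together in many cells. RefSeq on GRCm38.p6 gives 5 windows, each from 250 bases before to 50 bases after a transcription start, 1 each for Th, Slc18a2 and Slc6a3 and 2 for Ddc, of which the one at the outer end of the gene is printed. Capitals mark matches on either strand to AAGGTCA (bound by Nr4a2-type receptors), TAATCC (bound by Pitx-type homeodomains), TGACGTCA (the cAMP response element) or TATAAA (the TATA box).
Th, chr7:142899946-142900245, minus strand: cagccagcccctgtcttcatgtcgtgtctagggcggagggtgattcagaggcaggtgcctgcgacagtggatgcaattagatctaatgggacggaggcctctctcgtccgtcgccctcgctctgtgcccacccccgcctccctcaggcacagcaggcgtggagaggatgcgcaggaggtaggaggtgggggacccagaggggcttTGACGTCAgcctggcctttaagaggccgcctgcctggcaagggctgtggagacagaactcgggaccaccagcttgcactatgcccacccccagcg
Slc18a2, chr19:59260628-59260927, plus strand: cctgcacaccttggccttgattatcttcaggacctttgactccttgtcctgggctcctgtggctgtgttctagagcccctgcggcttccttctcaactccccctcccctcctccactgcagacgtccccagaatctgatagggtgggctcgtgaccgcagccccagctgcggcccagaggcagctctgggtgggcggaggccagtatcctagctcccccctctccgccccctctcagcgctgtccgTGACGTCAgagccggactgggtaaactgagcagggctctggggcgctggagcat
Slc6a3, chr13:73536497-73536796, plus strand: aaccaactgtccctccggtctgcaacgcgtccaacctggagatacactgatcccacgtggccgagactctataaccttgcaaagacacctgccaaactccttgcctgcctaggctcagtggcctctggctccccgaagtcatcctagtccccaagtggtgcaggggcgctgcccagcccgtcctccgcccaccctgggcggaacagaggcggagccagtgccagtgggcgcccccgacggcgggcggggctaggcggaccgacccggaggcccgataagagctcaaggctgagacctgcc
Ddc, chr11:11898095-11898394, minus strand: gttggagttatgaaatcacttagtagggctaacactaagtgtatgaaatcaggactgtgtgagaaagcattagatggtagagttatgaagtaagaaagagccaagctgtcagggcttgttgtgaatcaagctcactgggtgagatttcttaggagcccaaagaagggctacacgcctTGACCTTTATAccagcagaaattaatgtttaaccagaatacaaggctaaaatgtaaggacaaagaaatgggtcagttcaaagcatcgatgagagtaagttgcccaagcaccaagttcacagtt

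Th and Slc18a2 each had 1 TGACGTCA, starting 45 bases before the start of Th and 4 bases before that of Slc18a2, a motif held by 1.79% of all 32817 windows of this length. The printed Ddc window held AAGGTCA (4.72% of all windows) on the opposite strand, 73 bases before the start, overlapping a TATAAA match (13.6% of all windows) on the opposite strand, 68 bases before it. The Slc6a3 window and the inner Ddc window (chr11:11890359-11890658) held none of the 4 motifs, and TAATCC (7.06% of all windows) was in none of the 5 windows. GC content was 64.3% for Th, 64% for Slc18a2, 66% for Slc6a3, 54.3% for the inner and 41.3% for the outer Ddc window, beside a median of 52.7% over all windows. A match is a run of letters and was not tested as a binding site.

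Libraries differed in ways that touch the comparisons. Median reads per cell ran from 732071 (E13.5, Pitx3eGFP/eGFP) to 2357898 (E13.5, Pitx3eGFP/wt). ERCC spike-in RNA was in all E18.5, P90 and Pitx3eGFP/eGFP cells and in 94 P1 Pitx3eGFP/wt cells, so at E13.5 genotype and spike-in cannot be told apart. Nor can spike-in be told apart from the steps from E15.5 to E18.5 and from P7 to P90. The dissociation kit changed between E18.5 and P1 and again between P7 and P90, and cannot be told apart from those stage steps. Cells with at least 3 of 10 oligodendrocyte markers over RPKM 10 (oligodendrocyte-marker cells) made up 36.2% at P7, 10.3% at P1 in Pitx3eGFP/wt and 5.88% at P1 in Pitx3eGFP/eGFP, and at most 2.66% elsewhere. Pitx3, the targeted gene, averaged RPKM 416 at E13.5 and 89.6 at P1 in Pitx3eGFP/wt, against 18.7 and 7.47 in Pitx3eGFP/eGFP. EGFP averaged 323.02 and 101.96 in Pitx3eGFP/wt, against 713 and 181.05 in Pitx3eGFP/eGFP.

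Across all groups, 471 of 1674 cells (28.1%) had the full set of 4 members on, 385 (23%) had Th, Ddc and Slc18a2 on without Slc6a3, and 14% had none. Next came cells with Ddc and Slc18a2 alone (9.62%), with Ddc alone (6.69%) and with Th and Ddc alone (6.45%). Slc6a3 without Th was rare. It occurred in 16 cells with Ddc and Slc18a2, in 3 with Ddc, in 1 with Slc18a2 and in 6 cells by itself.

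**Figure D1:**
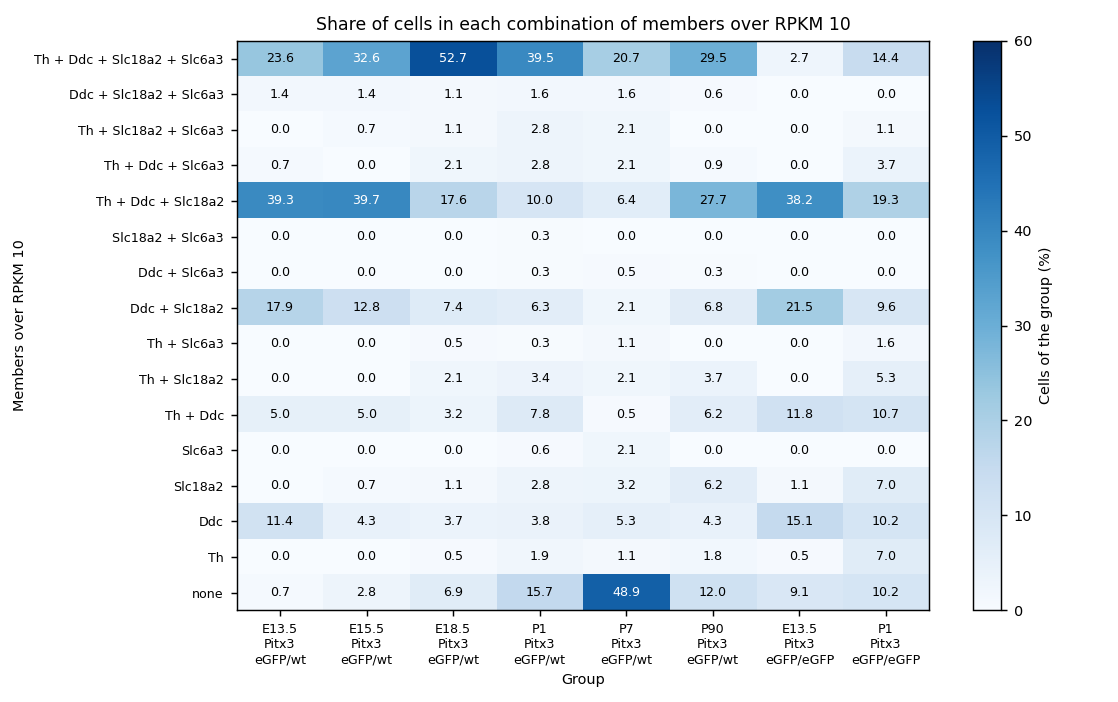
Percentage of the cells of each group (columns) in each of the 16 combinations of members over RPKM 10 (rows), as colour and printed value. Most cells fall in a few combinations, with 52.7% in the full set at E18.5, 39.7% with Th, Ddc and Slc18a2 at E15.5 and 48.9% with none at P7.

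Among the Pitx3eGFP/wt groups taken whole, the full set was most frequent at E18.5. Before birth it was on in 33 of 140 Pitx3eGFP/wt cells at E13.5 (23.6%, interval 16.8 to 31.5), in 46 E15.5 cells (32.6%, 25 to 41) and in 99 E18.5 cells (52.7%, 45.3 to 60). After birth it was on in 39.5% of P1 cells (34.1 to 45.1), in 39 P7 cells (20.7%, 15.2 to 27.2) and in 96 P90 cells (29.5%, 24.6 to 34.8). Ordered by share, E18.5 exceeded P1 by 13.2 points (4.19 to 21.9), and no later neighbours among the Pitx3eGFP/wt groups (P1, E15.5, P90, E13.5, P7) differed beyond counting error. The P1 cells with spike-in, which all E18.5 cells also carry, had the full set in 55.3% and those without it in 32.9%, so the place of E18.5 above P1 rests on the latter cells. Without oligodendrocyte-marker cells the share was 42.7% at P1 and 30% (36 of 120 cells) at P7. The P90 share minus the P7 share was then -0.19 points (-10.1 to 8.93), against 8.79 points (0.89 to 16.1) with those cells kept.

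Cells with none of the members were most frequent at P7. There was 1 at E13.5 (0.71%), and the later stages in turn had 4 (2.84%), 13 (6.91%), 50 (15.7%), 92 (48.9%) and 39 (12%). Of the 92 at P7, 49 (53.3%) were oligodendrocyte-marker cells, 75 had at least 2 astrocyte markers on, and 23.9% had at least 3 neuron markers on. At P90 none of the 39 was an oligodendrocyte-marker cell and 100% had at least 3 neuron markers on. Without oligodendrocyte-marker cells the share with none was 35.8% at P7 and 10.1% at P1, and the part of other cell types in the remainder was not tested.

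**Figure D2:**
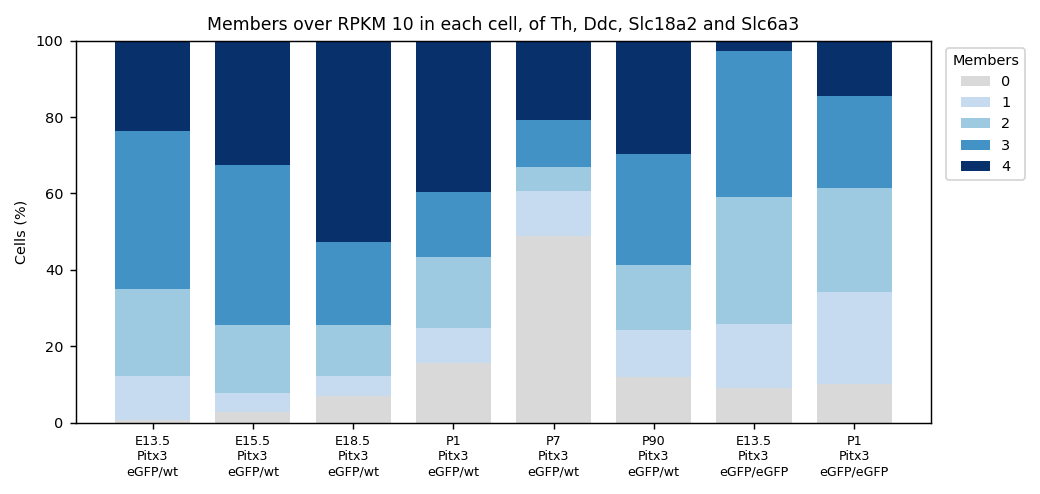
Stacked bars of the percentage of cells of each group (horizontal axis) with 0, 1, 2, 3 or 4 members over RPKM 10. The darkest part, cells with all 4, is tallest at E18.5 (52.7%) and shortest at E13.5 in Pitx3eGFP/eGFP (2.69%), and the grey part, cells with none, is tallest at P7 (48.9%).

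Each member followed its own course over the Pitx3eGFP/wt stages. Taking the 6 stages in order, Th was on in 68.6%, 78%, 79.8%, 68.7%, 36.2% and 69.8% of cells. Ddc was on in 99.3%, 95.7%, 87.8%, 72.1%, 39.4% and 76.3% at the same stages, so nearly every cell had the decarboxylase at E13.5. Slc18a2 was on in 82.1%, 87.9%, 83%, 66.8%, 38.3% and 74.5%. Slc6a3 was on in 25.7%, 34.8%, 57.4%, 48.3%, 30.3% and 31.4%, the lowest share of the 4 at every stage. From E15.5 to E18.5 the Slc6a3 share was 22.7 points higher (11.8 to 32.7), while the Th difference was 1.77 points (-6.96 to 10.9). Spike-in was in all E18.5 and no E15.5 cells and cannot be told apart from this step; within P1 Pitx3eGFP/wt, cells with spike-in exceeded those without by 20.5 points for Slc6a3 and 23.3 for Th. From P7 to P90 the Slc6a3 difference was 1.07 points (-7.35 to 9.12), while Th, Ddc and Slc18a2 were 33.7, 36.9 and 36.2 points higher. Without oligodendrocyte-marker cells those 3 differences were 20.2, 23.9 and 22.9 points, and that of Slc6a3 was -8.32 points (-18.5 to 1.53). Spike-in was in all P90 and no P7 cells and cannot be told apart from this step either. Within P1 Pitx3eGFP/wt, cells with spike-in exceeded those without by 13.9 points for Ddc and 27.5 for Slc18a2.

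Most cells lay well above or below the limit. RPKM values between 5 and 20 were held by at most 5.35% of cells of any group for Slc6a3, 4.84% for Ddc, 12.3% for Slc18a2 (P1, Pitx3eGFP/eGFP) and 14.5% for Th (P90). At P90, 35 cells had Th between 5 and 10 and 12 had it between 10 and 20. Oligodendrocyte-marker cells were not free of the members. Of the 68 at P7, 8 (11.8%) had Th on, 11 (16.2%) Ddc, 10 (14.7%) Slc18a2 and 9 (13.2%) Slc6a3, at a median of 2139885 reads against 2195165 in the other P7 cells. The other P7 cells had shares of 50%, 52.5%, 51.7% and 40%. Elsewhere Th was on in 9 of 33 oligodendrocyte-marker cells at P1 in Pitx3eGFP/wt, in 5 of 11 at P1 in Pitx3eGFP/eGFP and in all 5 at E18.5, of which 4 had the full set, so the class is defined by its markers and is not a reference that lacks the members. No cells were removed as doublets, and their part in these shares was not tested.

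**Figure D3:**
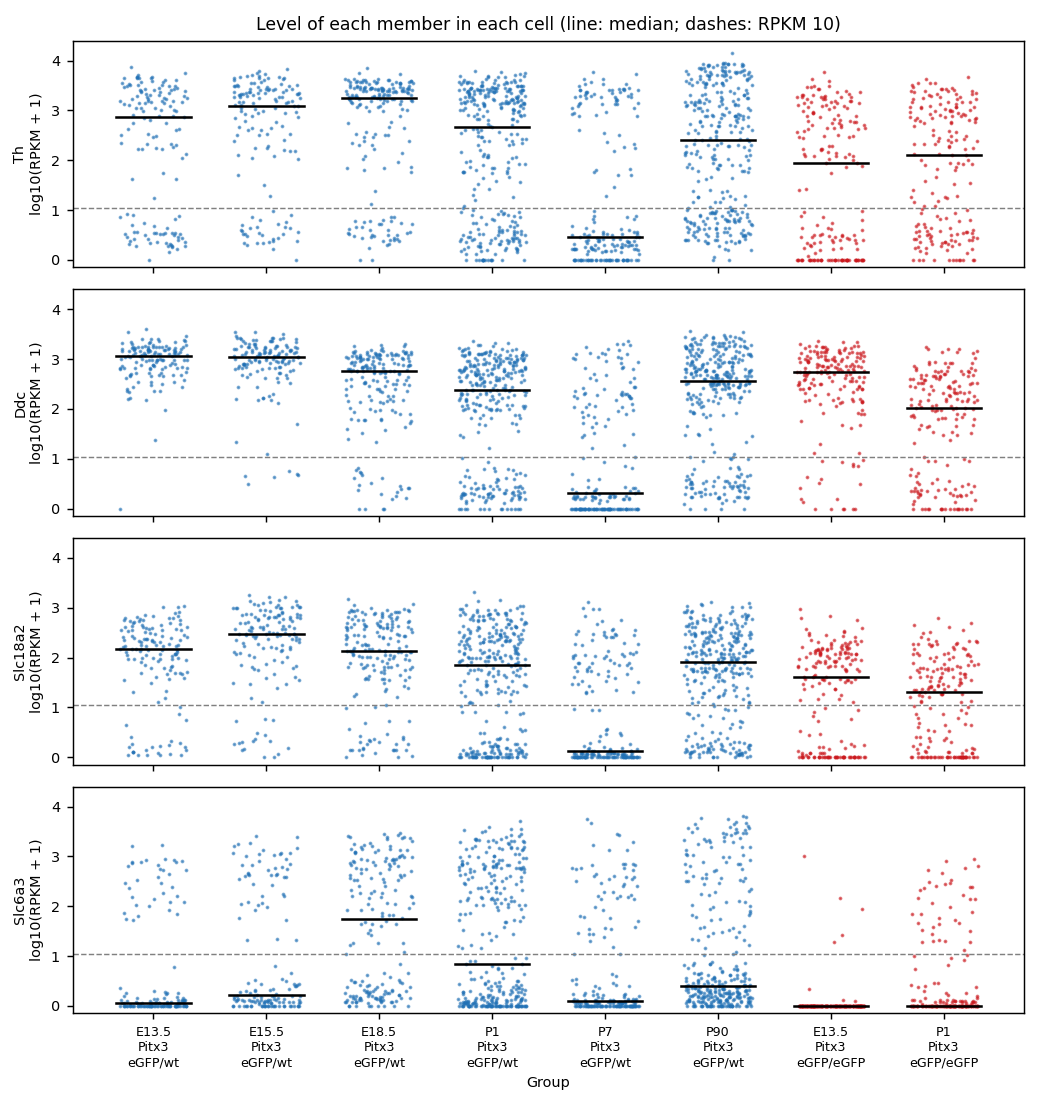
Level of each member in each of 1674 cells as log10(RPKM + 1) on the vertical axis, by group, with the median as a line and RPKM 10 as dashes; blue points are Pitx3eGFP/wt and red points Pitx3eGFP/eGFP cells. Values fall into a high and a low cloud, and 178 Pitx3eGFP/eGFP cells at E13.5 have Slc6a3 at 0.

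In cells with a member on, its level was far above the limit. The median RPKM of Th in such cells was 1570, 1837, 2200, 1467, 1815 and 1109 over the Pitx3eGFP/wt stages in order, and its quartiles at P90 were 202.8 and 4050. For Ddc the medians were 1149, 1123, 623, 501, 204.1 and 571, highest in the first stages. Slc18a2 medians were 203.1, 373.4, 208.9, 185.1, 106.2 and 138.1, and Slc6a3 medians were 307.96, 438, 535, 549, 259.4 and 549. By RPKM, Th had the highest of these medians at every stage. RPKM corrects for length and mapped reads only. The paper warns that Smart-seq2 libraries may hold too much or too little of some mRNAs. The order of genes by RPKM therefore need not be their order by transcript number.

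The members were on together more often than the product of their single shares. That product was 14.4%, 22.8%, 33.4%, 16%, 1.65% and 12.5% over the same stages, each below the observed share of the full set. It was taken over all cells, with the oligodendrocyte-marker cells (36.2% at P7 and 10.3% at P1), and the part of mixed cell types was not tested. At E13.5 and E15.5, with 0 such cells, the observed shares were 23.6% and 32.6%. Cells with any 3 members nearly always had the fourth where it was Th, Ddc or Slc18a2, and less often where it was Slc6a3. Among cells with the other 3 on, Th was on in 92.9% to 98%, and Ddc and Slc18a2 each in 90.7% to 100%, over the 6 Pitx3eGFP/wt groups. Slc6a3 was on in 33 of 88 such cells at E13.5 (37.5%, 27.4 to 48.5), in 45.1% of E15.5 cells (35.2 to 55.3) and in 75% of E18.5 cells (66.7 to 82.1). The later values were 79.7% in P1 cells (72.6 to 85.7), 76.5% in P7 cells (39 of 51, 62.5 to 87.2) and 51.6% in P90 cells (44.2 to 59), so at this limit the transporter completed the set most often from E18.5 to P7. With any read counted as on, P90 (91.4%) stood above P7 (89.6%) and P1 (88.6%), and E18.5 was at 95.1%.

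A nested order described most cells. In 1364 of 1674 cells (81.5%) Slc18a2 was on only with Ddc, Th only with both, and Slc6a3 only with all 3, the highest share of the 24 possible orders. Cells with all members or none keep any order, and over all cells the next orders were kept by 78.3% and 78% and the lowest by 43.5%. Among the 968 cells with 1 to 3 members on, the first order was kept by 68%, the next by 62.5% and the last by 2.38%. That order came first at E13.5 (92.9%), E15.5 (92.2%), E18.5 (88.3%), P7 (83.5%) and, in Pitx3eGFP/eGFP, E13.5 (86.6%). With Th and Slc18a2 exchanged it came first at P1 in Pitx3eGFP/wt (76.8% against 75.2%) and in Pitx3eGFP/eGFP (64.7% against 63.6%), and with Ddc and Slc18a2 exchanged at P90 (82.2% against 80.3%). The order was chosen from these cells and is a description.

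Median levels of Th, Ddc and Slc18a2 were set side by side in cells with the full set and cells with these 3 but not Slc6a3. The median was higher with the full set in 17 of 18 comparisons over the Pitx3eGFP/wt groups, the exception being Slc18a2 at P7 (137.2 against 150.4, with 39 and 12 cells). It was also higher for all 3 at P1 in Pitx3eGFP/eGFP, and lower for all 3 at E13.5 in Pitx3eGFP/eGFP, where 5 cells had the full set (585 against 902 for Th). At P90 the median RPKM was 4853 for Th in cells with the full set and 557 in cells with Th, Ddc and Slc18a2 but not Slc6a3, 1629 and 323.8 for Ddc, and 410 and 87.2 for Slc18a2. At E13.5 the medians were 2290 and 1424 for Th, 1493 and 1283 for Ddc, and 413 and 175.3 for Slc18a2. Median reads of those classes were 1833881 and 1588177 at P90, and 2365572 and 2352186 at E13.5.

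Levels covaried among cells, more so at P90 than at E13.5. Over all P90 cells the Pearson correlation of log2(RPKM + 1) was 0.72 between Th and Ddc, 0.71 between Th and Slc18a2 and 0.68 between Th and Slc6a3, and 0.67 within the P90 cells with Th and Ddc on. Over 140 cells at E13.5 the same pairs gave 0.50, 0.41 and 0.37, and 0.33 within the 96 cells with Th and Ddc on. Cells of a group share libraries prepared together and animals, so these values describe the cells at hand.

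The genotypes were compared to ask how the set stands where both Pitx3 alleles are replaced. At E13.5 the full set was on in 5 Pitx3eGFP/eGFP cells (2.69%, 0.88 to 6.16) against 23.6%, a difference of -20.9 points (-28.7 to -13.7). At P1 it was on in 27 (14.4%) against 39.5%, a difference of -25.1 points (-32.0 to -17.3). Slc6a3 had the largest difference of the 4 members at both stages, -23.0 points at E13.5 (2.69% against 25.7%, -31.0 to -15.6) and -27.4 points at P1 (20.9% against 48.3%, -35.0 to -19.0).

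The other members differed less. At E13.5 Th was on in 53.2% against 68.6% (-15.3 points, -25.4 to -4.62), Slc18a2 in 63.4% against 82.1% (-18.7 points, -27.7 to -8.96) and Ddc in 89.2% against 99.3% (-10.0 points, -15.3 to -5.15). At P1 Slc18a2 differed by -10.1 points (-18.8 to -1.36), which was -5.31 points (-14.3 to 3.51) with cells thinned to 500000 reads, while the intervals for Th (-5.55 points, -14.2 to 2.90) and Ddc (-4.19 points, -12.6 to 3.94) included 0. Without oligodendrocyte-marker cells the P1 differences were -9.22 points for Th (-18.0 to -0.61), whose interval then lay below 0, -13.4 for Slc18a2 and -7.39 for Ddc (-15.8 to 0.78). Cells with Th, Ddc and Slc18a2 but not Slc6a3 made up 38.2% against 39.3% at E13.5 (-1.11 points, -11.7 to 9.40) and 19.3% against 10% at P1 (9.22 points, 2.94 to 16.1). The latter difference was 5.93 points (-1.20 to 15.1) without 1 of the 2 Pitx3eGFP/eGFP plates and 12.5 points (4.32 to 22.5) without the other, and Slc18a2 then differed by -14.6 points (-25.8 to -3.47) and -5.48 points (-16.8 to 5.21).

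The P1 differences depended on which Pitx3eGFP/wt cells were used. The 94 cells with spike-in, a single plate, had the full set in 55.3% and none in 2.13%, and the cells without it had them in 32.9% and 21.3%. Oligodendrocyte-marker cells were 0% of the former and 14.7% of the latter. Against the 94 cells alone, the Pitx3eGFP/eGFP difference was -40.9 points for the full set (-51.4 to -29.3), -41.9 for Slc6a3 (-52.4 to -30.0), -29.5 for Slc18a2 (-38.6 to -18.6), -22.0 for Th (-31.2 to -11.2) and -14.0 for Ddc (-23.5 to -3.05). All 4 members then had intervals below 0. Against the Pitx3eGFP/wt cells without spike-in, the difference was -18.4 points for the full set (-26.2 to -10.3) and -21.4 for Slc6a3 (-29.7 to -12.4), while it was -1.98 for Slc18a2 (-11.5 to 7.51), -0.086 for Ddc (-9.14 to 8.84) and 1.32 for Th (-8.05 to 10.6). The full set and Slc6a3 thus lay below 0 against either kind of cell, and the other members only against the spike-in plate. All P1 Pitx3eGFP/eGFP cells carried spike-in, so against that plate spike-in was matched, while plate and genotype cannot be told apart. Against the cells without spike-in, spike-in and genotype cannot be told apart.

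**Figure D4:**
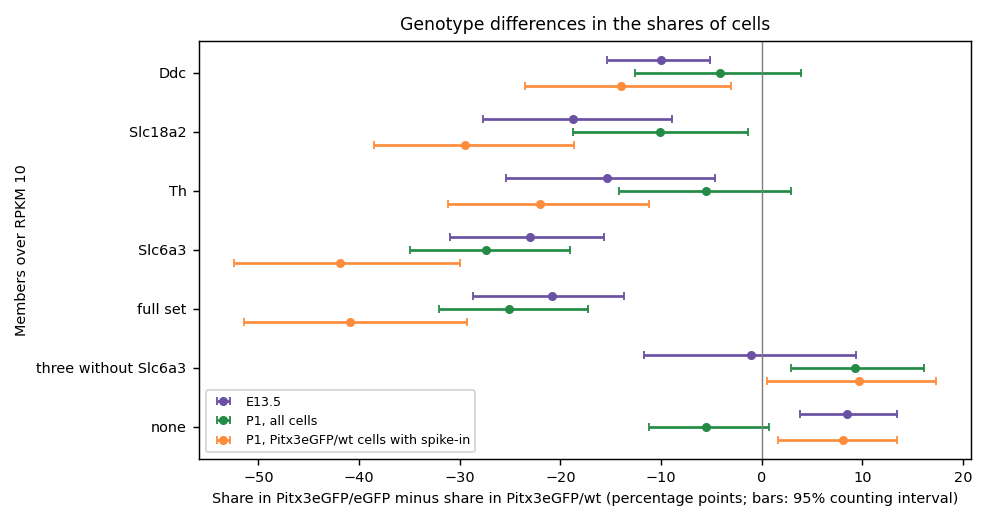
Share of cells in Pitx3eGFP/eGFP minus share in Pitx3eGFP/wt in percentage points (horizontal axis), with 95% counting intervals as bars, for each member, the full set, the other 3 without Slc6a3, and none, for 3 comparisons (E13.5, P1, and P1 against the Pitx3eGFP/wt cells with spike-in). Slc6a3 (-23.0, -27.4 and -41.9 points) and the full set lie below 0 in all 3 comparisons, while the bars of Th and Ddc at P1 with all cells cross 0.

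Among cells with Th, Ddc and Slc18a2 on, Slc6a3 was on in 5 of 76 Pitx3eGFP/eGFP cells at E13.5 (6.58%, 2.17 to 14.7) against 37.5%, and in 27 of 63 at P1 (42.9%, 30.5 to 56) against 79.7%. Leaving out 1 plate at a time gave 4.35% to 10.5% for the Pitx3eGFP/eGFP cells at E13.5. At E13.5, 178 Pitx3eGFP/eGFP cells (95.7%) had no Slc6a3 read, against 54 of 140 Pitx3eGFP/wt cells. Depth differed between these groups, and with every cell thinned to 100000 reads the Slc6a3 shares were again 2.69% and 25.7%. The deepest of the 3 Pitx3eGFP/eGFP plates at E13.5, with a median of 1563619 reads, had Slc6a3 on in 3 of 71 cells (4.23%), beside 1 of 91 and 1 of 24 on plates with medians of 451921 and 270702.

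Plates of 1 group also differed. The full set was on in 38.3%, 30.4%, 22.6% and 23.9% of cells of the 4 P90 plates, in 58.1% and 47.4% at E18.5, and in 16.1% and 12.8% at P1 in Pitx3eGFP/eGFP. On the P90 plate with the highest share, all 36 cells with Slc6a3 on had the full set.

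Mean RPKM over all cells of a group joins how many cells have a member on with how much they hold. It was compared for every gene whose mean reached 10 in 1 of the groups compared or in both, a gene being called past 2-fold. From E13.5 to E15.5 none of the 4 members was called, against 8.47% of 8333 genes, with Slc18a2 (224.3 to 431.6, 1.92-fold) and Slc6a3 (117.2 to 233.5, 1.99-fold) just inside the limit. From E15.5 to E18.5 none was called, against 12.5% of genes, with Ddc at 0.51 (1187 to 604) and Slc6a3 at 1.86 times (233.5 to 433.5) the earlier mean. None was called from E18.5 to P1, against 5.07% of genes, with ratios from 0.68 (Th) to 0.94 (Slc6a3).

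The later steps moved with the oligodendrocyte-marker cells. From P1 to P7, Ddc (ratio 0.46), Slc18a2 (0.40) and Slc6a3 (0.45) were called and Th (0.54) was not, against 11.8% of genes. Without those cells the ratios were 0.61 for Ddc, 0.54 for Slc18a2 and 0.61 for Slc6a3, none past 2-fold, against 9.13% of genes. From P7 to P90 all 4 were called, against 34% of genes, at 2.56 for Th, 3.29 for Ddc, 2.35 for Slc18a2 and 2.34 for Slc6a3. Without those cells they were 1.88, 2.35, 1.65 and 1.60, so that Ddc alone was past 2-fold, against 31.2% of genes. Spike-in, in all P90 and no P7 cells, cannot be told apart from that step. The median log2 ratio of the members over the 5 steps was 0.60, -0.27, -0.46, -1.13 and 1.29, beside -0.03, -0.04, 0.02, -0.07 and -0.11 for all genes compared.

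Between genotypes a gene was called when the Pitx3eGFP/eGFP mean was at least 2-fold lower. At E13.5 this held for Slc6a3 (6.84 against 117.2, ratio 0.058), Slc18a2 (85.3 against 224.3, 0.38) and Th (579 against 1326, 0.44), 3 of 4 members against 2.30% of 8201 genes, and Ddc was at 0.56 (658 against 1165). At P1 it held for Slc6a3 (41.98 against 405.8, 0.10) and Slc18a2 (56.7 against 193.9, 0.29), 2 of 4 against 1.92% of 8817 genes, with Th at 0.54 (643 against 1180) and Ddc at 0.57 (252.2 against 443.1). A ratio lower than that of Slc6a3 was found for 0.073% of genes at E13.5 and 0.079% at P1. The E13.5 mean of Slc6a3 in Pitx3eGFP/eGFP rests on 5 cells over RPKM 10, the highest at 998.

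Other genes of the pathway were compared between cells with the full set and cells with none, as the share of cells over RPKM 10, counting differences of at least 20 points. Among all genes over the limit in at least 20% of either class, members left out, 3.97% were more frequent and 6.78% less frequent with the full set at P90, and 29.7% and 4.71% at P1. The P1 cells with none differed in cell type: 21 of 50 were oligodendrocyte-marker cells, 22 had at least 2 astrocyte markers on and 58% had at least 3 neuron markers on, against 4, 6 and 100% with the full set. Without oligodendrocyte-marker cells the P1 counts of every list were the same, while the part of cells with astrocyte markers was not tested. At P90 all cells of both classes had at least 3 neuron markers on and none was an oligodendrocyte-marker cell.

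Tetrahydrobiopterin, the cofactor of tyrosine hydroxylase, is made from GTP in several steps, the first by the enzyme of Gch1. Of 6 cofactor genes, 3 were more frequent with the full set at P90 (5 were over the limit in enough cells to be counted) and 3 at P1 (4 were), and none less frequent. Of all genes, 3.97% at P90 and 29.7% at P1 were more frequent, and 6.78% and 4.71% less frequent. At P90 the highest difference was that of Gch1 (65.6% against 5.13%) and the lowest that of Spr, sepiapterin reductase (85.4% against 89.7%). At P1 they were those of Gch1 (69% against 6%) and Gchfr, which encodes its feedback regulator (1.59% against 2%).

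Of 5 genes of dopamine breakdown, 2 were more frequent with the full set at P90 (5 could be counted), beside 3.97% of all genes. At P1 it was 1 (4 could be counted), beside 29.7% of all genes, a count not above that share. Aldh1a1, an aldehyde dehydrogenase, had the highest difference at both ages, with 55.2% against 0 of 39 cells at P90 (an exact interval up to 9.03%, and 7.69% by the limit of 3 counts) and 62.7% against 12% at P1. Aldh2, another aldehyde dehydrogenase, differed by -10.4 points at P90 and by -4.73 points at P1, the lowest value at P1. Drd2, the D2 dopamine receptor, was on in 70.8% against 2.56% at P90 and in 58.7% against 4% at P1. Of 8 genes of other monoamines, none was on in enough cells of either class to be counted at either age. Slc18a1, the other vesicular monoamine transporter, had the highest difference (9.38% against 2.56% at P90, 10.3% against 2% at P1), Slc6a2, the noradrenaline transporter, had the lowest at P1 (-2.00 points), and Dbh, Pnmt, Slc6a2 and Tph1 were on in no cell of either class at P90.

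Reporter and lineage regulators (Pitx3, EGFP, Nr4a2, Lmx1b, En1 and Foxa2) were all more frequent with the full set at P1, 6 of 6, from 41.7 points for Lmx1b to 80.5 points for En1, beside 29.7% of all genes. Oligodendrocyte-marker cells were 42% of the P1 cells with none, and the count was 6 of 6 without them. At P90 En1, a homeobox regulator of midbrain dopamine neurons, was the 1 gene of the 6 past 20 points (88.5% against 28.2%), beside 3.97% of all genes. Foxa2 had the lowest difference (60.4% against 69.2%). In a list of 4 glutamate and GABA genes and Nxph4, which encodes a secreted neurexophilin, 2 could be counted at P90. Both were less frequent with the full set, beside 6.78% of all genes. They were Nxph4 (18.8% against 100%) and Slc17a6, the vesicular glutamate transporter VGLUT2 (67.7% against 100%). Gad2, a GABA-synthesizing enzyme, had the highest difference (18.8% against 0%). At P1 Slc17a6 was more frequent with the full set (50.8% against 22%), beside 29.7% of all genes, and Gad1 had the lowest difference (-14.4 points).

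Cells with Th, Ddc and Slc18a2 but not Slc6a3 were set beside the full set in the same way, with genes chosen after their values were seen. At P90 Drd2 was on in 16.7% of them against 70.8%, Gch1 in 15.6% against 65.6%, En1 in 48.9% against 88.5% and Maob, monoamine oxidase B, in 6.67% against 43.8%. Conversely, Nxph4 was on in 71.1% against 18.8%, Gad2 in 61.1% against 18.8% and Slc17a6 in 100% against 67.7%. En1 was the 1 of the 6 reporter and lineage regulators at least 20 points more frequent with the full set at P90, beside 1.83% of all genes. The other regulators differed by less than 20 points either way at P90. The same P90 count was 1 of 6 for cofactor genes and 2 of 5 for breakdown genes. At P1 the count for regulators was 2 of 6, beside 2.84% of all genes. They were Pitx3 (62.5% against 86.5% with the full set) and Lmx1b (21.9% against 43.7%). En1 was not among them at P1 (84.4% against 90.5%). At P1 Drd2 was on in 21.9% against 58.7% and Gch1 in 31.3% against 69%, while Nxph4 was on in 46.9% against 14.3%, Gad2 in 43.8% against 10.3% and Slc17a6 in 84.4% against 50.8%. Nxph4, Gad2 and Slc17a6 were thus the 3 of the 5 genes of that list at least 20 points less frequent with the full set at both ages, beside 4.02% of all genes at P90 and 1.87% at P1, and none was more frequent, beside 1.83% and 2.84%. The paper that reported these cells sorted them into subgroups by genes that include Slc6a3, Nxph4, Gad2 and Aldh1a1. The counts of the lists that hold these genes are therefore descriptions of the same cells and no separate support.

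Genes were also ranked by how closely they followed the set, by the correlation over cells of log2(RPKM + 1) with the mean of the 4 members within each of the 8 groups, for 9872 genes over RPKM 10 in at least 5% of cells of every group. The median over groups was 0.67 for Slc10a4, a vesicle protein of the bile acid transporter family (0.56 to 0.84 over groups), beside 0.02 for the median gene. It was followed by the imprinted gene Dlk1 (0.60), En1 (0.60), the nicotinic receptor subunit Chrna6 (0.58) and the neuropeptide gene Cck (0.54). Next came the receptor phosphatase Ptpru (0.53), the GDNF receptor Ret (0.51), Tmem255a (0.49), the kainate receptor subunit Grik3 (0.48) and the active zone gene Erc2 (0.47). The lowest medians were those of Gm3764 (-0.51), Nfia (-0.41), Zfp536 (-0.38), Nova1 (-0.36) and Nxph4 (-0.35), of which only Gm3764 was below 0 in all 8 groups. Zfp536, Nova1 and Nxph4 were above 0 at P7 alone, where 36.2% were oligodendrocyte-marker cells. Without such cells the same 10 genes ranked highest, and the part of mixed cell types was not tested. At E13.5 in Pitx3eGFP/eGFP, 95.7% of cells had no Slc6a3 read, so the mean there rests mostly on Th, Ddc and Slc18a2.

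**Figure D5:**
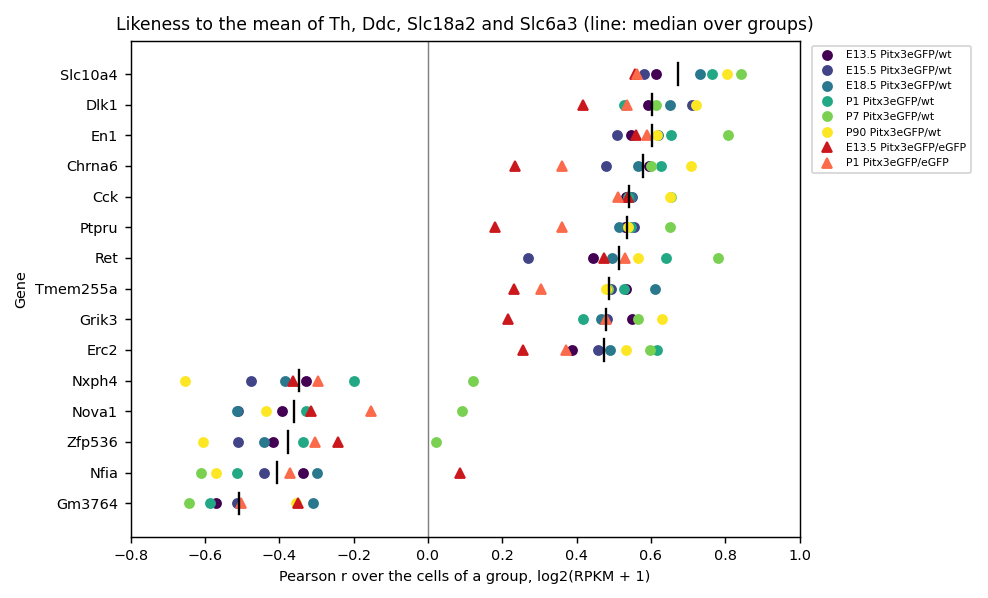
Pearson correlation over the cells of a group between each gene and the mean of the 4 members on log2(RPKM + 1) (horizontal axis), for the 10 genes with the highest and the 5 with the lowest median, with circles for Pitx3eGFP/wt and triangles for Pitx3eGFP/eGFP groups and a line at the median. Slc10a4 lies between 0.56 and 0.84 in all 8 groups. Nxph4 ranges from -0.65 at P90 to 0.12 at P7, where 36.2% were oligodendrocyte-marker cells.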

How the data were processed

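Each of the 1699 deposited files holds 1 cell, with whole-number counts of uniquely mapped reads per gene and RPKM values that the authors computed with rpkmforgenes. Per the labels, reads were aligned to mm10 with STAR. Groups are stage by genotype, from the labels, and held 140, 141, 188, 319, 188 and 325 Pitx3eGFP/wt cells from E13.5 to P90, and 186 and 187 Pitx3eGFP/eGFP cells at E13.5 and P1. Cells with over 100000 reads on genes were kept (100007 to 8634201 reads), and 0 pairs of cells had identical counts.

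A member was on over RPKM 10. Animals are not identified, so no test was run. Mean RPKM ratios used every gene whose mean reached 10 in 1 of the groups compared or in both, and correlations a pseudocount of 1. Thinning drew reads without replacement. The ratio and correlation code was tested on simulated data. Named genes are the members, the highest and lowest of each list between full set and none, and the 10 highest and 5 lowest in likeness. A gene that this rule names is not reported here. Members and lists were chosen with earlier results of these data known. Alternatives were other RPKM limits, a gene-detection filter, thinning, and leaving out oligodendrocyte-marker cells, plates or spike-in cells. List counts without oligodendrocyte-marker cells were added after the data were seen. Python 3.11.15, numpy 2.4.6, scipy 1.17.1, pandas 2.3.3 and matplotlib 3.10.9 were used. Sequences are from RefSeq and gene positions from GENCODE vM21.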

Additional observations from a re-analysis of the deposited data

Results flagged for a closer look

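The genotype difference in cells with none of the 4 members had opposite signs at E13.5 and P1. It was 8.43 points at E13.5 (3.77 to 13.5) and -5.51 points at P1 (-11.2 to 0.77), where it was -1.62 points (-6.83 to 4.26) without oligodendrocyte-marker cells, 8.03 points (1.65 to 13.4) against the P1 Pitx3eGFP/wt cells with spike-in alone, and -11.2 points (-18.0 to -4.09) against those without it. The difference in cells with Th, Ddc and Slc18a2 but not Slc6a3 was -1.11 points at E13.5 and 9.22 points at P1 (5.93 points, -1.20 to 15.1, without 1 of the 2 Pitx3eGFP/eGFP plates). Neither change between stages was tested.

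Among the 25 cells under the read limit, which no comparison uses, 12 (48%, 27.8 to 68.7) had the full set on and 21 (84%) had Th on. With so few reads each read weighs more in RPKM. A member counted as on there is therefore not a like measure to that in the cells used, and the cells come from several groups.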

How the results depend on the processing

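The genotype differences in the full set and in Slc6a3 were below 0 under all 11 alternatives at E13.5 and all 13 at P1, and that in Th at P1 under 11 of 13 (1.32 points against Pitx3eGFP/wt cells without spike-in). With a limit of RPKM 1 the full set was 45.4%, 66%, 53.6% and 53.8% at E15.5, E18.5, P1 and P90, and 20.3% at P1 in Pitx3eGFP/eGFP, its P1 genotype difference -33.3 points, Slc6a3 among cells with the other members 68.1% at P90, and the nested order was kept by 78.5%. A limit of 50 gave 45.2% at E18.5, 14.4% at P7 and 6.95% at P1 in Pitx3eGFP/eGFP, with the order kept by 78.7%. A limit of 150 gave 13.6%, 23.4%, 34.6%, 25.1%, 9.57% and 20.9% from E13.5 to P90, 0% and 2.67% in Pitx3eGFP/eGFP at E13.5 and P1, and a difference of -13.6 points at E13.5. Slc6a3 among cells with the other members was then 82.3% at E18.5, 89.9% at P1, 64.8% at P90 and 0% at E13.5 in Pitx3eGFP/eGFP, and the order was kept by 70.2%. With any read counted, the full set was 60%, 80.1%, 92%, 73%, 45.7% and 88% in turn and 33.2% at P1 in Pitx3eGFP/eGFP, the differences were -55.7 and -39.9 points, Slc6a3 among cells with the other members 60.9%, 81.9%, 95.1%, 88.6%, 89.6% and 91.4%, and the order 86.4%. Without oligodendrocyte-marker cells the P7 full set was 30%. P1 spike-in cells alone gave 55.3% and a difference of -40.9 points, and those without spike-in 32.9%. Leaving out 1 plate at a time gave 26% to 32.3% at P90, 47.4% to 58.1% at E18.5, 32.9% at P1, and in Pitx3eGFP/eGFP 1.74% to 4.21% at E13.5 and 12.8% to 16.1% at P1, with differences of -21.8 to -19.4 points at E13.5 and -26.7 to -18.5 at P1. A mean RPKM of at least 1 gave 3330, 3677, 2580, 3244 and 6839 genes called over the 5 stage steps and 1273 and 1259 between genotypes, against 706, 1059, 438, 1076 and 3154 for the steps as reported and 2.30% and 1.92% of genes between genotypes. CPM gave 1098 from E13.5 to E15.5, 664 from E18.5 to P1 and 284 at P1 between genotypes. At least 9 of the 10 genes with the highest likeness were shared under each alternative. The cause of these shifts was not tested. No paired analysis was possible because the result comes from no test.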
